A study of Mus musculus with 2 samples.

Results

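Non-cycling regulatory T cells of the pancreatic islet were examined in 1 single-cell library from WT NOD mice and 1 from mice labelled NOD.Cxcl16-/-, a label for NOD mice that lack the chemokine gene Cxcl16. NOD mice develop autoimmune diabetes. Both libraries came from females aged 12 weeks and hold leukocytes that were sorted as positive for CD45 and negative for CD31 from hand-picked islets. How many animals were pooled for a library is not given in the sources used here. Members were chosen by their own transcript counts: a barcode was taken when it had at least 500 detected genes, at most 10% mitochondrial UMIs (unique molecular identifiers, each counting 1 captured transcript), at least 1 Foxp3 UMI, at least 1 UMI of the T-cell receptor genes Cd3d, Cd3e and Cd3g, no UMI of the CD8 genes Cd8a and Cd8b1, at most 1 UMI of the B-cell and macrophage genes Cd79a, C1qa and Lyz2 and at most 1 UMI of the cell-cycle genes Mki67 and Top2a. Of 24413 deposited barcodes, 22466 passed the gates on genes and mitochondrial UMIs, and 635 of these were members: 259 of 12252 in the WT NOD library and 376 of 10214 in the library labelled NOD.Cxcl16-/-.

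Regulatory T cells are CD4 T cells that hold other lymphocytes in check and are specified by the transcription factor Foxp3. They depend largely on interleukin-2 made by other T cells, which they bind through the high-affinity receptor chain CD25 (Il2ra) and read through STAT5. In NOD islets they sit among the conventional CD4 and CD8 T cells that attack the beta cells.

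Members had medians of 4333 and 4472 UMIs and 1911 and 1927.5 genes per cell, with the WT NOD library first here and in every pair of values below. Their UMIs summed to 1438351 and 2312562. The comparison cells, called Foxp3-negative CD4 T cells, passed the same gates with no Foxp3 UMI and at least 1 Cd4 UMI and numbered 1283 and 1206, at medians of 4159 and 4534 UMIs. The libraries shared 45 barcodes, none of them a member in both. Over all barcodes Cxcl16 stood at 103 and 102 CPM (UMIs scaled to the total of the library or, below, of the class), so the transcript of the targeted gene was present in the library labelled NOD.Cxcl16-/-, which goes against that label. The libraries read the 3′ ends of transcripts, and which part of the gene the allele removes is not given in the sources used here. Within the members it stood at 17.4 and 19.9 CPM, and at 3.13 and 2.03 CPM (4 and 4 UMIs) without the members of 5 or more MHC class II UMIs described below. That library is therefore called by its label, and each direction between the libraries is a direction between these libraries. Each group has 1 library, so no difference between the libraries can be tested, and every interval below is at the 95% level and covers counting error only.

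Foxp3 (GRCm38 chrX:7573644-7595245, plus strand) chose the members, and its values are a description. The members with exactly 1 Foxp3 UMI numbered 148 and 212, those with 2 numbered 62 and 81, and those with 3 or more numbered 49 and 83, up to 6 and 7 UMIs in a cell. The cells just inside the gate were set beside the rest in markers that the gate did not use. Ikzf2 (GRCm38 chr1:69531214-69687245, minus strand), which encodes the Ikaros-family factor Helios, stood at 1066 and 1210 CPM in members with 1 Foxp3 UMI. It stood at 1241 and 1164 CPM in those with more and at 224 and 251 CPM in Foxp3-negative CD4 T cells just outside. Il2ra was lower in members with 1 Foxp3 UMI than in those with more (75.1 and 77.5 against 122 and 104 CPM), with 21.8 and 16.5 CPM outside. Tnfrsf4 was also lower (1154 and 1306 against 1322 and 1371 CPM). Ctla4 had no common direction (1474 and 1957 against 1710 and 1666 CPM). On the other edges, 34 and 72 members held the 1 cell-cycle UMI allowed, and 14 and 19 otherwise similar cells held 2 and were left out. A further 20 and 15 were left out for a single CD8 UMI, and 39 and 37 for 2 or more. Whether members include CD8 T cells with no CD8 UMI captured was not tested. A Cd4 UMI was seen in 44.4% and 50.8% of members.

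Some defining markers of other cell types were near 0 in the members' sums and others were not. In CPM, the B-cell gene Ms4a1 stood at 2.78 and 1.30, the macrophage genes Csf1r and Adgre1 at 0.695 and 1.30 and at 0 and 0, and the dendritic-cell gene Clec9a at 0 in both libraries. The B-cell gene Ighm stood at 366 and 332 CPM and the insulin gene Ins2 at 295 and 122 CPM. Over the macrophage list without its gate genes the sum was 70.2 and 79.6 CPM, against 74.4 and 58.4 CPM in Foxp3-negative CD4 T cells, and over the dendritic-cell list 40.3 and 48.4 against 78.8 and 56.2 CPM. A few members held transcripts of antigen-presenting cells. Of the members, 136 and 210 had no UMI of the MHC class II genes H2-Aa, H2-Ab1 and H2-Eb1, while 18 and 25 (6.95% and 6.65%) had 5 or more, up to 337 and 383 in a cell. In those 18 and 25 cells Tyrobp, a signalling adaptor of myeloid and natural killer cells, stood at 334 and 503 CPM, against 9.38 and 13.7 CPM in the remaining members, and Ikzf2 was present at 473 and 742 CPM. Their median depth was 7376 and 13911 UMIs against 4310 and 4396. Results that rest on these cells are given below with and without them, a choice made after the data were seen.

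The promoters of genes in the interleukin-2 pathway and of regulatory T-cell receptors were read for the STAT motif TTCNNNGAA, the palindrome that STAT5 binds. Their lists are compared between the classes below and hold genes that were higher, lower or neither. RefSeq windows on GRCm38.p6, from 250 bases before the transcript start to 50 after it, were listed for 39 of the 48 genes in the marker, interleukin-2, costimulation and suppressive lists, and 10 of the 39 held the motif: Cish, Fgl2, Foxp3, Gzmb, Il1r2, Il7r, Tnfrsf18, Tnfrsf1b, Tnfrsf25 and Tnfrsf9. Among genes tested below, 8.19% of 8574 with a window held it, and 8.30% of all 32851 windows did. The 10 include Foxp3, which chose the members, Il7r, which was lower in members, and Tnfrsf25, which did not pass the test below. The forkhead motif TGTTTAC, searched on both strands, was in 2 of the 39 (Bcl2l11 and Pim1) and in 3.65% of all windows, and the cAMP-response motif TGACGTCA was in 2 (Areg and Jak1) and in 1.79% of all windows. Of the genes tested that have a window, 3.11% and 3.85% held these motifs in any of their windows. These are matches of letters and say nothing of binding. The windows of 3 genes are printed 5′ to 3′ on the plus strand with the STAT motif in capitals, since Foxp3 defines the cells, Cish is a feedback gene of this pathway with a pair of motifs at bases 1 and 12 of the transcript, and Tnfrsf9 is among the receptors highest over the comparison cells. The motif begins 139 bases before a start listed for Foxp3 and 136 bases before a start listed for Tnfrsf9. Each of the 3 printed windows lies downstream of the first base of its gene, so these starts are not the most upstream ones.
Foxp3 (chrX:7580233-7580532): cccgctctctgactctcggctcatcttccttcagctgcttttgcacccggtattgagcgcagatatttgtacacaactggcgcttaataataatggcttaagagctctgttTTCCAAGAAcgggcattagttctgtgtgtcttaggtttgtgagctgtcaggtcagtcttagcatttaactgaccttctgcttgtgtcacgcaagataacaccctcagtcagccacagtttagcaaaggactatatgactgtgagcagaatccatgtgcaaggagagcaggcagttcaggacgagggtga
Cish (chr9:107296409-107296708): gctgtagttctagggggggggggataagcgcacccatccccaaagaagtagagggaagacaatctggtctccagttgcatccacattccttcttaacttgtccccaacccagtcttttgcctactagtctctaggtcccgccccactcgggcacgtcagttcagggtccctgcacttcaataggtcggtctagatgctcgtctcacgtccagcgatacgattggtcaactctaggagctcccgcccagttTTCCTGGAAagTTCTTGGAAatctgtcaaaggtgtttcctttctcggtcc
Tnfrsf9 (chr4:150927749-150928048): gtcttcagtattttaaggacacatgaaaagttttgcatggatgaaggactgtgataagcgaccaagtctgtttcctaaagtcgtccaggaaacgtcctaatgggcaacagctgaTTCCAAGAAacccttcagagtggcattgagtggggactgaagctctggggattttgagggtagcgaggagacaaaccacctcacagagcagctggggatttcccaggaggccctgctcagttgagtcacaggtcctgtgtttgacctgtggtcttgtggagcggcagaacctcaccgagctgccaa

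The members were then compared with Foxp3-negative CD4 T cells of the same libraries, to ask which genes besides Foxp3 set the cells apart. A comparison cell is one in which no Foxp3 UMI was captured. Since 148 and 212 members held just 1, regulatory T cells with none captured may be among the comparison cells, which was not tested. An alternative without comparison cells that held Il2ra or Ikzf2 is given below. Counts were summed per library and class and tested with edgeR's quasi-likelihood test with the library as a block, so that the 2 libraries are the replicates and 1 residual degree of freedom remains. Of 10948 genes tested, 683 (6.24%) were higher and 539 (4.92%) lower in regulatory T cells at an adjusted p under 0.05, not counting the genes of the gates. All 683 and 539 had the same sign in both libraries, and the median log2 fold over the genes tested was -0.01. With DESeq2 the counts were 222 and 201, and all 222 and 194 of the 201 were among those of edgeR. Without the cells of 5 or more MHC class II UMIs in either class, 972 genes were higher and 849 lower.

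The 5 markers besides Foxp3 were higher in regulatory T cells, with a median log2 fold of 1.28. Ikzf2 stood at 1152 and 1186 CPM in regulatory T cells and at 224 and 251 CPM in Foxp3-negative CD4 T cells, a log2 fold of 2.23 ± 0.07 (SE; edgeR adjusted p = 1.42e-08). Tnfrsf9, which encodes the costimulatory receptor 4-1BB, stood at 482 and 458 against 85.6 and 105 CPM (2.23 ± 0.10; edgeR adjusted p = 7.23e-08). Both regulatory sums lay above both comparison sums, as they did for Izumo1r, which encodes folate receptor 4 (510 and 443 against 202 and 173 CPM), for Tnfrsf4, which encodes OX40 (1236 and 1341 against 526 and 536 CPM), and for Ctla4, the inhibitory receptor that competes with CD28 for its ligands (1590 and 1804 against 871 and 981 CPM). The list was proposed with results of these data known, so its direction is not independent evidence. After each cell was thinned to 2000 UMIs, which left out 30 and 14 members, Ikzf2 was detected in 81.2% (75.6 to 86.1) and 76.5% (71.8 to 80.8) of members and in 22.9% and 22.6% of Foxp3-negative CD4 T cells. The unthinned shares were 85.7% and 88.6% against 33.6% and 34.1%. Cycling Foxp3-positive T cells, 56 and 73 cells at medians of 15178 and 18418 UMIs, also held Ikzf2 at 867 and 929 CPM, while CD8 T cells held 112 and 171 CPM.

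**Figure D1:**
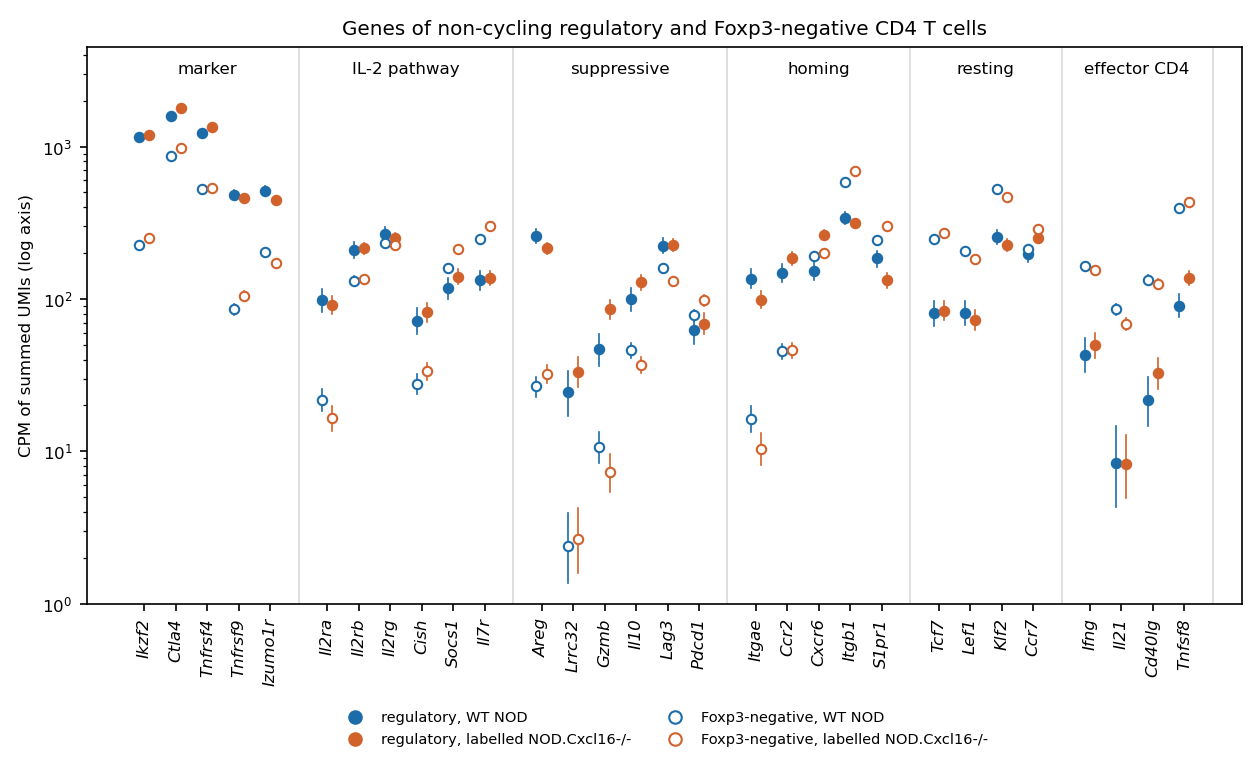
CPM of summed UMIs on a log axis for 30 genes in 6 roles, with filled circles for regulatory and open circles for Foxp3-negative CD4 T cells, blue for the WT NOD library and orange for the library labelled NOD.Cxcl16-/-. Bars are exact Poisson intervals for counting error. The filled circles lie above the open ones for the 5 markers (Ikzf2 at 1152 and 1186 against 224 and 251 CPM) and below them for the 4 effector CD4 genes.

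In the interleukin-2 pathway 5 of 16 genes were higher and 4 lower (median log2 fold 0.09), or 4 and 4 with DESeq2, which did not call Stat5b. Il2ra (chr2:11642807-11693193, plus strand), the chain that gives the receptor its high affinity, stood at 98.0 and 91.7 CPM in regulatory T cells and at 21.8 and 16.5 CPM in Foxp3-negative CD4 T cells (log2 fold 2.25 ± 0.13; edgeR adjusted p = 6.93e-07). Il2rb, the shared beta chain, was at 210 and 214 against 132 and 134 CPM (0.60 ± 0.08; edgeR adjusted p = 0.000313), whereas Il2rg, the common gamma chain, was at 267 and 250 against 234 and 226 CPM and did not pass the test (0.09 ± 0.07; edgeR adjusted p = 0.521). Among genes downstream of the receptor, Cish, a feedback inhibitor, was at 71.6 and 82.2 against 27.7 and 33.5 CPM (1.26 ± 0.12; edgeR adjusted p = 4.67e-05). Pim1, a survival kinase induced by STAT5, rose by 0.74 and Stat5b by 0.36 on the log2 scale, while Stat5a (108 and 95.6 against 74.3 and 85.0 CPM; edgeR adjusted p = 0.188) and the kinase gene Jak1 (411 and 432 against 391 and 433 CPM) did not pass. Of the 4 lower genes, the cytokine gene Il2 had 2.09 and 7.35 CPM against 18.9 and 20.96 CPM, and Il7r, the interleukin-7 receptor chain, had 133 and 138 against 249 and 299.6 CPM (-1.10 ± 0.09; edgeR adjusted p = 8.95e-06). The others were the feedback inhibitor Socs1 (-0.62) and the survival gene Bcl2 (-0.88). The members thus had more transcript of the receptor chains Il2ra and Il2rb and less of the cytokine gene Il2 than the comparison cells of the same library.

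Of 10 costimulation genes, 7 were higher and 2 lower (median 0.78). The receptors of the TNF family besides Tnfrsf4 and Tnfrsf9 were Tnfrsf18, which encodes GITR, at 544 and 482 against 191 and 151 CPM (log2 fold 1.52 ± 0.07; edgeR adjusted p = 1.73e-07), Cd27 (234 and 291 against 122 and 129 CPM; 1.00) and Tnfrsf1b, which encodes TNF receptor 2 (121 and 110.3 against 55.5 and 54.1 CPM; 1.00). The adaptor Traf1 and Icos rose by 0.57 and 0.41 on the log2 scale. The lower genes were Cd28 (370 and 442 against 465 and 555 CPM; -0.40) and Cd40lg, the ligand by which helper T cells license B cells and dendritic cells, at 21.6 and 32.4 against 133 and 125 CPM (-2.28 ± 0.14; edgeR adjusted p = 1.21e-06).

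Among 18 suppressive molecules tested of 19, 12 were higher and 1 lower (median 0.78), or 9 and 0 with DESeq2. Areg (chr5:91139599-91148432, plus strand), which encodes the tissue-repair growth factor amphiregulin, stood at 258 and 214 against 26.6 and 32.3 CPM (log2 fold 2.92 ± 0.13; edgeR adjusted p = 7.23e-08). Lrrc32, which encodes GARP, the protein that holds latent TGF-beta on the surface of regulatory T cells, stood at 24.3 and 33.3 against 2.41 and 2.68 CPM (3.42 ± 0.29; edgeR adjusted p = 1.35e-05), and Itgb8, an integrin chain that helps to release active TGF-beta, at 58.4 and 72.6 against 23.9 and 23.5 CPM (1.40). Tgfb1 itself differed by 0.32, and lost its call with DESeq2. The inhibitory cytokine gene Il10 stood at 99.4 and 128 against 46.2 and 36.9 CPM (1.41 ± 0.14; edgeR adjusted p = 5.42e-05), and after thinning it was detected in 15.7% and 16.6% of members against 7.30% and 4.98% of comparison cells. Gzmb, the cytotoxic protease granzyme B, was at 46.6 and 85.6 against 10.7 and 7.29 CPM (2.82 ± 0.25; edgeR adjusted p = 2.02e-05), and Il1r2, a decoy receptor for interleukin-1, at 152 and 143 against 74.1 and 49.96 CPM (1.21). Without the cells of 5 or more MHC class II UMIs in both classes, Il1r2 stood at 131 and 116 against 19.6 and 13.4 CPM (2.83). Gzmb was not particular to members, since CD8 T cells of the same libraries held it at 106 and 112 CPM. The inhibitory receptors Tigit and Lag3 rose by 0.98 and 0.57, whereas Pdcd1, which encodes PD-1, was the lower gene (62.6 and 68.8 against 78.1 and 97.7 CPM; -0.50 ± 0.11; edgeR adjusted p = 0.0115), a call that DESeq2 did not make (adjusted p = 0.579). Entpd1, the ATP-degrading enzyme CD39, at 34.8 and 48.0 against 30.2 and 27.2 CPM, did not pass.

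Of 31 transcription-factor genes, 13 were higher and 7 lower (median 0.24), or 9 and 4 with DESeq2. Besides Ikzf2, the Ikaros-family genes Ikzf4 (76.5 and 76.5 against 20.3 and 24.4 CPM; log2 fold 1.70) and Ikzf3 (277 and 370 against 158 and 176 CPM; 0.88) were higher, and the founding member Ikzf1 was lower (154 and 158 against 198 and 197 CPM; -0.41 ± 0.08; edgeR adjusted p = 0.0047). Hopx, a homeodomain protein of induced regulatory T cells, rose by 1.79, the orphan nuclear receptor Rora by 0.97 and Maf, which drives Il10 in several T-cell types, by 0.81 (611 and 734 against 418 and 321 CPM). Maf and Ikzf1 lost their calls with DESeq2. Tbx21, the factor of type 1 cells, at 26.4 and 40.2 against 35.0 and 38.2 CPM, and Gata3, that of type 2 cells, at 82.0 and 74.8 against 57.3 and 60.8 CPM, did not pass.

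Genes of resting T cells were lower in members: of 13, 10 were lower and 1, the chromatin organiser Satb1, was higher (log2 fold 0.50). The median of the list was -0.88, and DESeq2 called 1 higher and 7 lower. Tcf7, which encodes the stem-like factor TCF-1, stood at 80.6 and 83.9 against 248 and 271 CPM (-1.73 ± 0.09; edgeR adjusted p = 2.53e-07), Lef1 at 81.3 and 72.6 against 205 and 184 CPM, and Klf2, which maintains trafficking receptors, at 255 and 226 against 524 and 463 CPM. S1pr1, the receptor for exit into lymph, was at 184 and 133 against 244 and 299 CPM (-0.88 ± 0.14; edgeR adjusted p = 0.0017), and was not called by DESeq2. The lymph-node homing gene Ccr7 (197 and 252 against 212 and 289 CPM; edgeR adjusted p = 0.086) did not pass.

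Of 25 genes of effector and tissue regulatory T cells, 17 were higher and 2 lower (median 0.63), or 13 and 1 with DESeq2. Itgae (chr11:73090583-73147446, plus strand), which encodes CD103, an integrin chain that binds E-cadherin on epithelium, stood at 136 and 99.0 against 16.4 and 10.4 CPM (log2 fold 3.07 ± 0.13; edgeR adjusted p = 7.19e-08). It was detected in 24.5% and 16.6% of thinned members and in 2.49% and 1.12% of thinned comparison cells. Il1rl1, the receptor of interleukin-33 that marks tissue regulatory T cells, was at 23.6 and 32.0 against 2.56 and 4.46 CPM (2.90 ± 0.28; edgeR adjusted p = 3.48e-05), and Klrg1, a lectin-like receptor of terminal effector cells, at 6.95 and 13.4 against 0.902 and 0.446 CPM. Areg, Il1rl1 and Rora are also genes of group 2 innate lymphoid cells, and 4 of 5 tested genes of that list were higher, with the peptide gene Calca as well and Gata3 short of the threshold. Its cytokine genes Il5 and Il13 stood at 0 and 0.865 CPM and at 0 in both libraries. The 2 lower genes were Pdcd1 and the integrin chain Itgb1 (341 and 313 against 581 and 693 CPM; -1.04).

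Among 20 chemokine-receptor and homing genes tested of 21, 9 were higher and 2 lower (median 0.23), or 6 and 1 with DESeq2. Ccr2, the receptor of monocyte-attracting chemokines, stood at 149 and 184 against 45.3 and 46.1 CPM (log2 fold 1.797 ± 0.10; edgeR adjusted p = 4.81e-07), Ccr4 at 24.3 and 22.9 against 5.87 and 8.03 CPM (1.67) and Itgb7, the partner chain of CD103, at 228 and 222 against 132 and 133 CPM (0.69). Cxcr3, the receptor of interferon-induced chemokines, differed by 0.32 and lost its call with DESeq2. Cxcr6 (chr9:123806475-123811760, plus strand), the receptor of CXCL16, stood at 152 and 263 against 191 and 201 CPM and did not pass (0.01 ± 0.12; edgeR adjusted p = 0.985): it was below the comparison cells in the WT NOD library and above them in the other.

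The cytokine and ligand genes of conventional effector CD4 cells showed the reverse: of 11 tested of 15, 9 were lower, and none was higher with edgeR, where the count higher was also 0 at an unadjusted p under 0.05 and with DESeq2. The median of the list was -1.83, and DESeq2 called 7 lower. Il21, a helper cytokine for B and CD8 T cells, stood at 8.34 and 8.22 against 85.6 and 68.5 CPM (log2 fold -3.25 ± 0.18; edgeR adjusted p = 4.65e-07), Ifng at 43.1 and 49.7 against 165 and 154 CPM (-1.83) and Tnfsf11, which encodes RANKL, at 27.1 and 49.7 against 151 and 189.9 CPM (-2.20). Tnfsf8, which encodes CD30 ligand, stood at 90.4 and 138 against 394 and 434 CPM (-1.92 ± 0.10; edgeR adjusted p = 3.22e-07). Nrn1 and Cd200 were lower by smaller amounts (-0.96 and -0.34) and were not called by DESeq2.

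**Figure D2:**
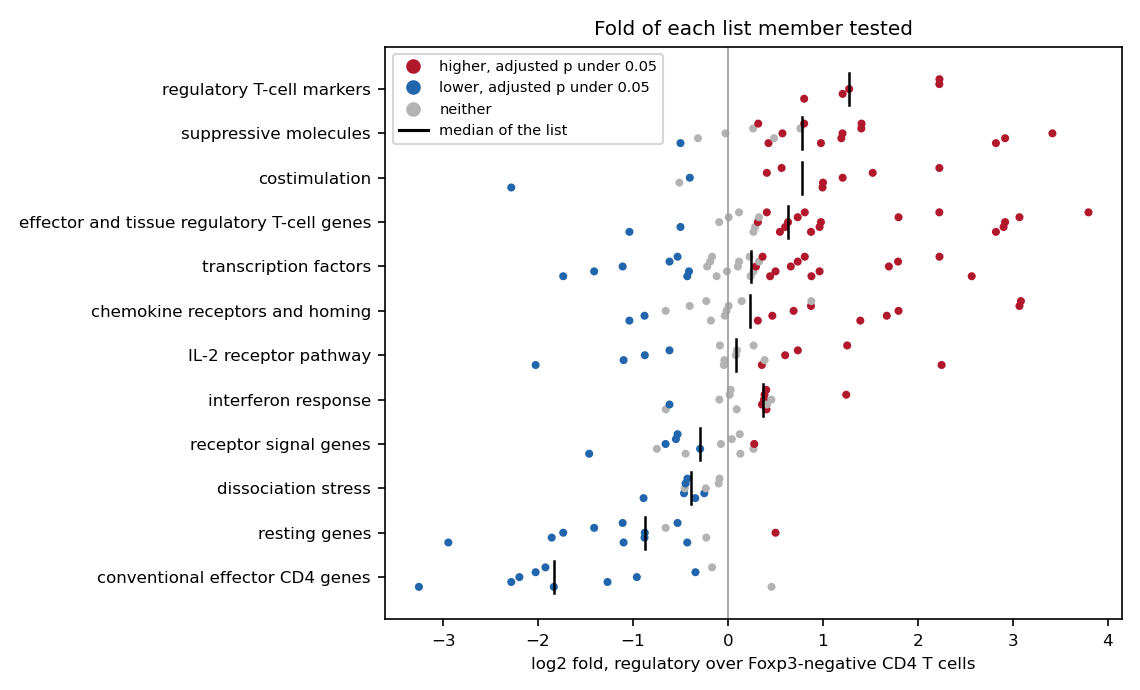
The log2 fold of regulatory over Foxp3-negative CD4 T cells (x axis) for each tested member of 12 gene lists (rows), coloured red where higher, blue where lower and grey where neither at an edgeR adjusted p under 0.05, with a black bar at the list's median. The points of the marker list all lie right of 0, and those of the conventional effector list lie left of it except for 1 grey point, Il17a.

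The remaining lists held interferon, signalling, stress, cycle and B-cell genes. Of 14 interferon-response genes (median 0.37) 6 were higher (4 with DESeq2), led by the surface antigen gene Ly6a (957 and 748 against 467 and 247 CPM; log2 fold 1.25), and Socs1 was lower. Of 13 genes induced by receptor signalling (median -0.29), 5 were lower (Nr4a2, Nr4a3, Dusp2, Cd69 and Egr2), of which DESeq2 called Nr4a2 alone, and the NF-kB inhibitor gene Nfkbia was higher by 0.28. Of 10 genes of dissociation stress, 6 were lower (median -0.39) and none was higher with edgeR, with 0 higher also at an unadjusted p under 0.05. DESeq2 called 3 lower and 0 higher. These are genes that respond to handling, and their part in the other differences was not tested. In the cell-cycle list, 1 of 12 genes outside the gate, Tubb5, was lower, and DESeq2 called none. The immunoglobulin heavy-chain gene Ighm was higher in members, at 366 and 332 against 125 and 124 CPM (1.41 ± 0.08; edgeR adjusted p = 4.65e-07), as was Cd79b at 10.4 and 6.92 against 3.61 and 1.78 CPM, which DESeq2 did not call, while Ms4a1 and Pax5 were too low to test. Ighm was detected in 42.8% and 45.0% of thinned members, in 16.7% and 17.9% of thinned comparison cells, and stood at 5206 and 4342 CPM in B cells.

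The genes with the highest fold, at 20 CPM or more in both sums of the higher class, were Rln3, Lrrc32, Slc24a3, Itgae, Gzma, Areg, Il1rl1, Lamc1, Gzmb, Arnt2, Itih5 and Rin2, from 3.47 down to 2.41 on the log2 scale. Rln3, which encodes a relaxin-family peptide, stood at 34.8 and 25.9 against 3.31 and 1.93 CPM, the sodium-calcium exchanger gene Slc24a3 at 53.5 and 36.8 against 4.51 and 5.204 CPM, and Lamc1, a laminin chain, at 145 and 137 against 19.1 and 18.1 CPM. Gzma is an exception to the rest of this list. Of its 261 UMIs in members of the WT NOD library, 168 came from 1 cell, and its log2 fold of 3.06 became -0.03 (edgeR adjusted p = 0.997) when a Cd4 UMI was asked of both classes. The genes with the lowest fold were Spp1, Sostdc1, Pdzrn3, Fbn2, Il21, Igfbp7, Igfbp4, Sst, Nsg2, Tgfbr3, Ccl1 and Cd40lg. Spp1, which encodes osteopontin, had 4 and 2 UMIs in members (2.78 and 0.865 CPM) against 312 and 942 UMIs in comparison cells (46.9 and 140.1 CPM), and Sostdc1, a secreted inhibitor of BMP signals, had 2 and 0 UMIs against 21.2 and 42.4 CPM. The Sst call rests on single cells: 171 of 321 and 374 of 438 UMIs of comparison cells came from 1 cell in each library, and without cells of 5 or more MHC class II UMIs its fold was -0.68 and was not called. Ccl1 likewise had 194 of 245 and 154 of 180 UMIs in 1 comparison cell. Without the MHC class II cells the fold of Ccl1 went from -2.41 to -4.52 and that of Spp1 from -6.06 to -6.90. Sostdc1 and Ccl1 also lost their call with DESeq2.

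The share of cells that were members was larger in the library labelled NOD.Cxcl16-/-. Of the cells past the gates on genes and mitochondrial UMIs, 2.11% (1.87 to 2.38) were members in WT NOD against 3.68% (3.32 to 4.06) in the other library, and the gap was 1.57 points (1.12 to 2.02). Of members and Foxp3-negative CD4 T cells together they made up 16.8% and 23.8%, shares that are raised because a Cd4 UMI was asked of the comparison cells alone. With a Cd4 UMI asked of both, 115 of 1398 (8.23%) and 191 of 1397 cells (13.7%) had a Foxp3 UMI, a difference of 5.45 points (3.09 to 7.81). Detection of Foxp3 depends on depth, and these cells had medians of 4236 and 4630 UMIs. Thinned to 2000 UMIs, with 123 and 44 cells left out, the shares were 4.86% (3.75 to 6.19) and 7.98% (6.59 to 9.56), and thinned to 1000 UMIs they were 2.05% and 4.56%. The background in B cells, which lack Foxp3, was 0.119% and 0.444% at medians of 4568 and 4728 UMIs, and 0 of 1544 cells and 0.152% of 1972 cells when thinned to 2000, where the count of 0 allows a share of up to 0.194% (3 counts of 1544) or, as an exact 95% limit, 0.239%. Of non-cycling T cells with 2 or more CD8 UMIs, 39 and 37 held a Foxp3 UMI, beside 2043 and 1219 Foxp3-negative CD8 T cells. B cells may therefore give too low a background for T cells, which was not tested. The order of the libraries was the same in each measure, and with 1 library each, genotype and library cannot be told apart.

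**Figure D3:**
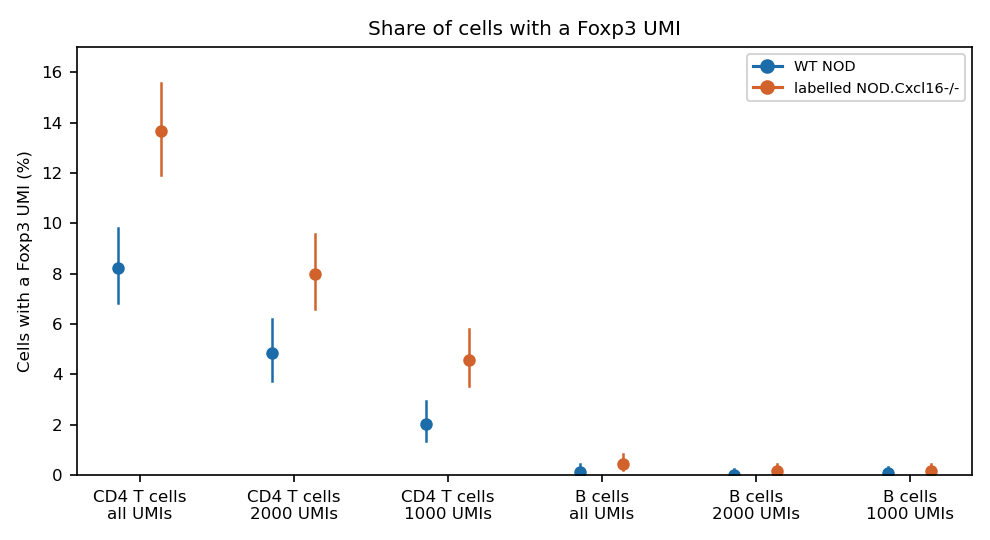
Percent of cells with a Foxp3 UMI (y axis) among non-cycling T cells with a Cd4 UMI and among B cells, with all UMIs and after thinning each cell to 2000 or 1000 UMIs, in blue for the WT NOD library and orange for the library labelled NOD.Cxcl16-/-. Bars are exact 95% binomial intervals. The orange points lie above the blue in CD4 T cells at each depth (13.7% against 8.23% with all UMIs), and B cells lie under 0.5%.

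Between the libraries the transcriptome of members differed in few genes. Of 3273 genes with a mean of at least 50 CPM, 52 (1.59%) were more than 1.5-fold higher and 23 (0.703%) more than 1.5-fold lower in the library labelled NOD.Cxcl16-/-, with a median log2 ratio of 0.05 over the genes tested. Of these, 8 and 11 were past 1.5-fold in the same direction in Foxp3-negative CD4 T cells. None of the 5 markers passed 1.5-fold: Ikzf2 differed by 0.04, Ctla4 by 0.18 and Izumo1r by -0.20 on the log2 scale. With 1 library per group these counts hold no measure of the spread between animals.

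Cxcr6 was among the genes that were higher. Its level in members was 152 CPM (133 to 174) in WT NOD and 263 CPM (242 to 285) in the other library, a log2 ratio of 0.78 (0.56 to 1.02), and the ratio was 0.83 without the cells of 5 or more MHC class II UMIs. The same ratio was 0.07 in Foxp3-negative CD4 T cells (191 and 201 CPM) and 0.27 in CD8 T cells (282 and 341 CPM). Whether these ratios differ between the classes was not tested. After thinning, a Cxcr6 UMI was found in 17.03% (12.4 to 22.5) and 25.4% (21.01 to 30.2) of members, intervals that overlap, and in 20.4% and 19.5% of comparison cells; unthinned, the members' shares were 26.6% and 35.9%. Gzmb stood at 46.6 CPM (36.1 to 59.2) and 85.6 CPM (74.1 to 98.4), a ratio of 0.86, against -0.50 in comparison cells. The share of members with a Gzmb UMI was 12.7% and 13.0% with all UMIs and 8.73% and 7.46% after thinning, so detection did not rise with the level, and 25 cells with 3 or more UMIs held 166 of the 198 UMIs in the second library. Nt5e, which encodes CD73, the enzyme that makes adenosine, stood at 57.7 and 99.0 CPM (0.77), and Socs2, a feedback gene of cytokine signals, at 53.5 and 82.6 CPM (0.62). In the suppressive list 2 of 12 genes tested were higher (Gzmb and Nt5e) and none was lower, and in the effector and tissue list 2 of 22 (Cxcr6 and Gzmb).

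The largest ratios upward belonged to Wdr89, Hsph1, Tmem176a, Tmem176b, Cd86, Hist1h1e, Vamp4 and Tyrobp. Hsph1, a heat-shock protein, stood at 59.1 and 136 CPM (1.19), with a ratio of 0.67 in comparison cells, so both classes were past 1.5-fold. Tmem176a, Tmem176b, Cd86 and Tyrobp are genes of antigen-presenting or myeloid cells. Tmem176b stood at 34.8 and 73.1 CPM (1.05), and at 15.6 and 17.2 CPM (0.13) once the 18 and 25 cells with 5 or more MHC class II UMIs were left out. Tmem176a turned from 1.05 to -0.43 and Tyrobp went to 0.50, while Cd86 stood at 7.03 and 16.7 CPM on 9 and 33 UMIs (1.14). Without those cells Tmem176a, Tmem176b, Tyrobp and Cd86 were all under the minimum level, so these ratios carry no call. Under a stricter gate on doublets, which asks for no Cd79a, C1qa or Lyz2 UMI, at most 1 UMI of further B-cell and macrophage genes and a depth of at most 2 times the median of the class, the ratio of Cd86 was -0.12. Tbc1d4, a regulator of glucose-transporter traffic named after its values were seen, went from 0.82 to 0.38 by the same step. Without those cells 46 genes were higher and 22 lower, of which 33 and 15 were among the 52 and 23.

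The largest ratios downward belonged to Gzma, Cxcl9, Ins2, Isg15, Ins1, Slfn5, Ubb and Ifi27l2a. Isg15, a ubiquitin-like protein induced by interferon, stood at 84.1 CPM (69.8 to 101) and 35.0 CPM (27.8 to 43.5), a ratio of -1.24, and Ifi27l2a, also induced by interferon, at 3410 and 2035 CPM (-0.74). Both ratios were -0.79 in Foxp3-negative CD4 T cells, and without the cells of 5 or more MHC class II UMIs they were -1.42 and -0.58 in members, the second just inside 1.5-fold. Ubb, which encodes polyubiquitin, had ratios of -0.77 in members and -0.73 in comparison cells. The interferon list had 2 of 9 tested genes lower and a median ratio of -0.19 in members and -0.32 in comparison cells. Nrn1, which encodes neuritin, a protein anchored to the cell surface, was lower in members (78.6 and 48.4 CPM; -0.69) and higher in comparison cells (91.3 and 135 CPM; 0.56), a difference that was not tested. Several of the other ratios rest on single cells of the WT NOD library: 168 of 261 Gzma UMIs, 191 of 214 Cxcl9 UMIs and 315 of 633 UMIs of the insulin genes Ins1 and Ins2 came from 1 cell each. Without the cells with 5 or more MHC class II UMIs, Cxcl9, a chemokine of interferon-stimulated myeloid cells, stood at 3.91 and 5.57 CPM. Over the islet endocrine list the members' sums were 475 and 230 CPM, against 175 and 359 CPM in comparison cells. Ins1 or Ins2 was found in 13.9% of WT NOD members and in 50% of members in the other library, so their sums and their detection go in opposite directions and no direction is read from them.

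**Figure D4:**
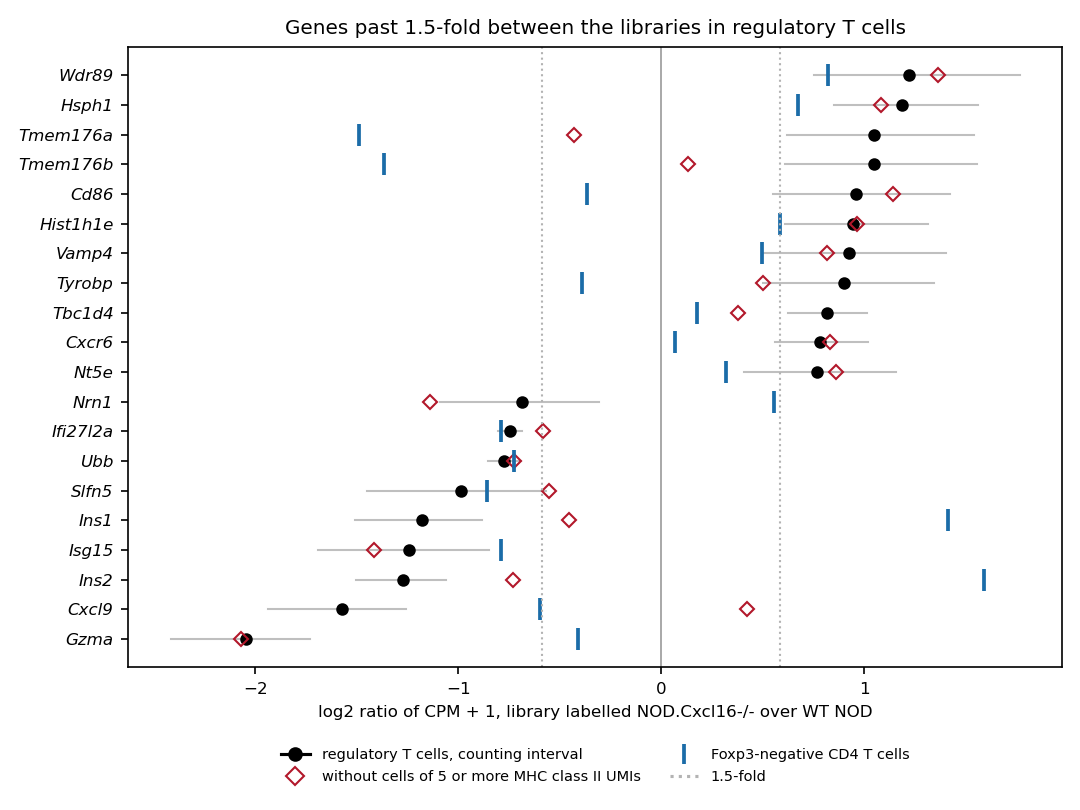
The log2 ratio of CPM + 1 between the libraries, NOD.Cxcl16-/- by label over WT NOD (x axis), for 20 genes in regulatory T cells (black circles, with counting intervals), in regulatory T cells without the cells of 5 or more MHC class II UMIs (red diamonds) and in Foxp3-negative CD4 T cells (blue ticks), with dotted lines at 1.5-fold. Cxcr6 and Nt5e keep their place among the diamonds, whereas Tmem176a, Tmem176b and Cxcl9 do not.

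Members also varied among themselves. In cells thinned to 2000 UMIs, Il10, the gene of the anti-inflammatory cytokine interleukin-10, was found in 19.4% and 22.7% of members with a Maf UMI and in 10.5% and 5.43% of those without. The chemokine receptor gene Cxcr3 was found in 34.8% and 34.5% of members with a Ccr2 UMI and in 18.03% and 26.3% of those without. For both pairs the share was higher in the members with the second gene in both libraries. Areg was found in 21.7% and 19.0% of members with a Ccr2 UMI and in 19.1% and 20.5% of those without, with no common direction. These shares describe the same cells, carry no test, and rest on 46 and 84 thinned members with a Ccr2 UMI and 134 and 233 with a Maf UMI.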

How the data were processed

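Single cells of islets were profiled with 10x Genomics 3′ v3.1 chemistry, per the labels' protocols. The authors deposited raw UMI counts per gene and barcode, made with Cell Ranger 7.0.1 against mm10, per the submitters' processing notes. Total UMIs were 93553185 and 98681133. A setting for intronic reads is not given in the sources used here. No doublet caller was run. The gates on other lineages, and an alternative without cells of 5 or more MHC class II UMIs, stand in its place. Of 32285 gene IDs, 32235 occur in GENCODE M21 (GRCm38), which gave coordinates.

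The members, the 24 gene lists and the tests were chosen with earlier results of these data known. UMIs were summed per library and class and scaled to CPM. Regulatory and Foxp3-negative CD4 T cells (4 sums) were compared with edgeR 4.0.16 (TMM, filterByExpr, quasi-likelihood test, library as a block, Benjamini-Hochberg, threshold 0.05). The 12 gate genes were not counted. DESeq2 1.42.0 was an alternative. The fit was tested on simulated counts with 200 genes changed by known folds. It recovered 44.8% of 1.5-fold, 80.6% of 2-fold and 98.5% of 4-fold changes, and 3.25% of its calls were false. The simulation held no class difference that varied between libraries, and it gave all genes the same dispersion (spread beyond counting error). Its changed genes were drawn only from those above a minimum expected count, so the recovery does not cover genes with fewer UMIs. A gene that did not pass may therefore still differ by a small fold. With the library as a block, these p-values rest on how far the class difference varies between the libraries, moderated over all genes. That variation holds label, animals and technical error together, and these cannot be told apart. Between libraries, ratios are log2 of CPM + 1, called past 1.5-fold at a mean of 50 CPM. Counts carry exact Poisson and shares Clopper-Pearson intervals at the 95% level. UMIs mark molecules, and the intervals cover counting error only. Thinning drew 2000 or 1000 UMIs per cell without replacement.

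Named genes were the list members, the 12 genes of largest fold each way at 20 CPM or more in both sums of the higher class, and the 8 of largest ratio each way between libraries. A planned split of the members and some list members are not reported here, and list counts include those members. Gate genes, T-cell receptor, immunoglobulin, mitochondrial and unnamed genes and Xist were passed over in the ranked names. Alternatives changed the normalisation, filters, gates, depth, minimum level and the definition of both classes. Analysis used R 4.3.3 and Python 3.11.15 with scipy 1.17.1.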

Additional observations from a re-analysis of the deposited data

How the results depend on the processing

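Regulatory and Foxp3-negative CD4 T cells were paired within a library. Between the libraries, no paired analysis was possible because each group has 1 library and the labels carry no replicate numbers. Leaving out a library leaves 1 pair of sums and no test. The 683 higher and 539 lower genes of regulatory T cells became 222 and 201 with DESeq2 and 415 and 269 without the library as a block. The lower count was 857 when Foxp3-negative cells with Il2ra or Ikzf2 were left out and 849 without cells of 5 or more MHC class II UMIs, against 996 and 972 higher. A subset of 39 of the genes named in this comparison gave 467 tested values over the alternatives. Of these values, 462 kept their call and 4 lost it (Sostdc1, Ccl1 and Maf with DESeq2, Sst without the MHC class II cells). Gzma turned to -0.025 with a Cd4 UMI asked of both classes. The 78 values of this subset from 1 library alone, which have no test, kept their sign. The subset leaves out other genes named above that DESeq2 did not call, among them Pdcd1, Ikzf1, S1pr1, Tgfb1, Cxcr3, Stat5b, Nrn1 and Cd200. Nr4a3, Dusp2, Cd69, Egr2, Cd79b, Tubb5 and Fgl2 are also among them. Of the 105 list genes called, 70 were called by DESeq2 and 101 without the MHC class II cells.

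Between the libraries the 52 higher genes became 96 with at least 2 Foxp3 UMIs, 114 after thinning, 176 at a minimum of 20 CPM, 14 at 100 CPM and 32 with 10 CPM added. The 23 lower genes became 67, 101, 98 and 8 in the first 4 of these settings, 61 under the strict gate and 37 as a mean of cell CPM. For 18 genes of this comparison, 159 ratios over the alternatives stayed the same, 30 in 13 genes moved without turning and 9 in 5 genes turned. Those that moved were 8 after thinning, 6 without MHC class II cells, 6 as a mean of cell CPM, 5 under the strict gate and 5 with at least 2 Foxp3 UMIs. Of those that turned, Tmem176a was -0.15 under the strict gate and -0.43 without MHC class II cells. Under the strict gate Cd86 (-0.12), Ins2 (2.63) and Ins1 (2.57) turned. Cxcl9 was 1.47 with at least 2 Foxp3 UMIs, 0.15 under the strict gate, 0.42 without MHC class II cells and 0.13 as a mean of cell CPM.

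The difference in the share of cells past the gates was 0.70 points with at least 2 Foxp3 UMIs and 1.10 under the strict gate. Of members and Foxp3-negative CD4 T cells it was 4.01 points with at least 2 Foxp3 UMIs, and of cells with a Cd4 UMI 2.51 points after thinning to 1000. The cause of these changes was not tested. Depth limits genes near the minimum level.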

Other observations

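Several transcripts of the cells were carried by a small number of barcodes. Gzma, which encodes granzyme A, was found in 10 of 259 and 9 of 376 members, and 168 of 261 and 59 of 100 of its UMIs came from 1 cell in each library. Without that cell its level was 65.3 and 17.8 CPM. Cxcl9 was found in 12 and 22 members, with 191 of 214 and 52 of 114 UMIs in 1 cell. Areg was spread more widely, over 84 and 114 members (32.4% and 30.3%), with 54 of 371 and 48 of 496 UMIs in the cell that held most. Lamc1 was found in 47.5% and 41.0% of members and in 6.70% and 7.71% of Foxp3-negative CD4 T cells.

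A Ccr7 UMI was found in 23.1% and 22.0% of thinned members with an Ikzf2 UMI and in 23.3% and 29.4% of those without. Itgae was found in 27.4% and 18.4% of thinned members with an Ikzf2 UMI and in 11.6% and 10.6% of those without. These are shares within the same cells, and no difference between them was tested.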
